A study of Homo sapiens with 6 samples.

Results

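The genes described here are those with much more mRNA in A-375 melanoma libraries labelled SEPHS2 knockout than in libraries with a control guide. They were chosen from the deposited count table by their reads in the same 6 libraries. A gene had to have 100 or more reads summed over the 3 libraries labelled knockout, and a mean level there of 2.5 or more times the control mean. Levels are in CPM, the reads of a gene per 1000000 counted reads of its library. Of 21631 rows of the table, 14185 had the reads, 61 also had the ratio, which is 0.43% of them, and 44 remained after leaving out some genes by name. The 17 left out were NGFR, NDC80, ST6GALNAC5, TYMS, CCBE1, ABCA13, EPHB1, KRT14, KRT81 and 8 RNAs with symbols that begin LINC. The same ratio in the other direction was far more frequent. It held for 364 of 14447 rows with 100 or more control reads, or 2.52%.

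A-375 is an established human melanoma line. RNA was sequenced from 3 libraries labelled with a guide against SEPHS2 (the knockout group) and from 3 libraries labelled with a control guide, all from A-375 cells. SEPHS2 makes selenophosphate, the selenium donor for selenocysteine. The labels name no clones, separate lines or times. They do not say that the replicates were grown apart, so a p-value here reflects the variation among 6 libraries, part or all of which may be technical.

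Each library held 34606145 to 43405579 counted reads. SEPHS2 mRNA was not lower in the libraries labelled knockout, with 5802, 7643 and 6978 reads there against 6671, 6277 and 6269 in controls (log2 fold change 0.15, edgeR adjusted p = 0.00401). A gene-level count does not show whether a reading frame was changed, so each direction below rests on the labels. In all, 45.4% of 16910 tested genes passed edgeR at an adjusted p under 0.05. As shares of all tested genes, 22% were higher and 23.4% lower in the libraries labelled knockout. The melanoma label was checked with SOX10, a transcription factor of the melanocyte lineage, which had 566 ± 13.3 CPM in libraries labelled knockout and 622 ± 17.0 CPM in controls (SD, n = 3 each). The pigment genes TYR, TYRP1 and DCT were near 0 in both groups, and PMEL and MLANA were at about 1 CPM. Fewer cells of a kind and less RNA per cell cannot be told apart in such libraries.

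The 44 genes do not belong to 1 pathway. By RefSeq annotation 33 are protein coding and 7 are long noncoding RNAs, and the rest are 2 pseudogenes, a ribosomal RNA gene and 1 symbol without a match. Several are textbook genes of epithelia and of the cell surface, where claudins seal tight junctions, connexins form gap junctions and syndecans carry heparan sulfate chains that bind growth factors and matrix. Others act on actin and microtubules, in lymphocyte signalling or in chromatin. Most vertebrate genes used in all cells start in CpG islands, stretches rich in the dinucleotide CG, whereas many genes restricted to a few tissues start in CpG-poor sequence.

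Promoters of 4 members are printed because they show both kinds of start among these genes. Each runs from 250 bases before to 50 bases after a RefSeq start, 5′ to 3′ on the strand of the gene, from RefSeq with build GRCh38.p14. Capitals mark each CG. ARHGDIB is at chr12:14948847-14949146 on the minus strand, at a start inside the gene, and GJB1 at chrX:71214989-71215288 on the plus strand. CLDN1 is at chr3:190322397-190322696 on the minus strand, and TUBB6 at chr18:12307419-12307718 on the plus strand.
ARHGDIB: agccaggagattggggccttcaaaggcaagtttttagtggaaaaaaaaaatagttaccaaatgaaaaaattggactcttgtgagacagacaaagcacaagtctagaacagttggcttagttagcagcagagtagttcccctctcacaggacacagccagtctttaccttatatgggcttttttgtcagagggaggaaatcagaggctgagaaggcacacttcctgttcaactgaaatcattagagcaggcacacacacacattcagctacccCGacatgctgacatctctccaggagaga
GJB1: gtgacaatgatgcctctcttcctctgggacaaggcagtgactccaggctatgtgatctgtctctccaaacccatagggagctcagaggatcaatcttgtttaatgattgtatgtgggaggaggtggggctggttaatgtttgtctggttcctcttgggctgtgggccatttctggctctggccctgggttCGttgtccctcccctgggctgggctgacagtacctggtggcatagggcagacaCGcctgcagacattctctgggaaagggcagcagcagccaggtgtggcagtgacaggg
CLDN1: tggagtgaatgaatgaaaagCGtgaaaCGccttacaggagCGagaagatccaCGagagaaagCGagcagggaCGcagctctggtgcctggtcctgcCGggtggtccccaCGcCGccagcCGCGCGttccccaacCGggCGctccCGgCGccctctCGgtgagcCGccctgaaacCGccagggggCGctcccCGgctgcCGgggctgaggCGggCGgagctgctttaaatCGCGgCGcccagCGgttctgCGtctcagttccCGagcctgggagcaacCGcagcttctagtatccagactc
TUBB6: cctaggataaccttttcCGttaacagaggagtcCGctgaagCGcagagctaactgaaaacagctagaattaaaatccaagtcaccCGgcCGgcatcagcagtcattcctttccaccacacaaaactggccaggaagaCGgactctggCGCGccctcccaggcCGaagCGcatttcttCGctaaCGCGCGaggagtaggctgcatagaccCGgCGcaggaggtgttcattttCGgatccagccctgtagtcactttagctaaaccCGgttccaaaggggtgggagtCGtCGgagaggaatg
The window of ARHGDIB holds 1 CG and that of GJB1 holds 2. Those of CLDN1 and TUBB6 hold 31 and 20. The CpG ratio, the CG count over that expected from the C and G content, was 0.07 for ARHGDIB, 0.09 for GJB1, 0.92 for CLDN1 and 0.88 for TUBB6.

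Over the 32 members with distinct counts and a promoter in the RefSeq table, CpG-poor starts were frequent. The median CpG ratio was 0.34 in the members and 0.82 in the 12658 other tested genes. A ratio under 0.4 was found in 18 of 32 members (56.25%), against 14.7% of the other tested genes. The choice of the outermost listed start, tried after the data were seen, gave the same member median and count, 0.34 and 18. Identical values may mean that no member window changed, so this does not show how they depend on the start. CpG-poor starts are more frequent among genes with few reads, and the members have few reads, so the shares were also set side by side at like levels. Among members with a control mean under 1 CPM, 10 of 14 (71.4%) had a ratio under 0.4, against 41.9% of other tested genes at that level. At 1 to 10 CPM the count was 8 of 16 members (50%), against 22.1% of other genes, and at 10 CPM or more it was 0 of 2 members (TUBB6 and SDC1), against 7.18% of other genes. For rows 2.5-fold or more lower in the libraries labelled knockout, the share was 28.0% of 257. The lowest ratio was that of ECM2, with no CG in its window, and the highest that of C4orf19, at 1.02. The windows of ECM2, SP140, ADAMTSL1 and ARHGDIB, all under 0.4, lie at starts well inside the gene, so their ratios describe those starts only. The GC box GGGCGG, a binding motif of SP1, stood on either strand in 28.1% of member promoters, 66.4% of those of other tested genes and 44.6% of all 27305 promoters in the table. By control mean, the shares were 28.6% of members and 47.3% of other tested genes under 1 CPM. They were 25% and 61.5% at 1 to 10 CPM, and 50% (of 2 members) and 71.6% at 10 CPM or more. These are descriptions of sequence, with no test, since genes are not replicates.

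**Figure D1:**
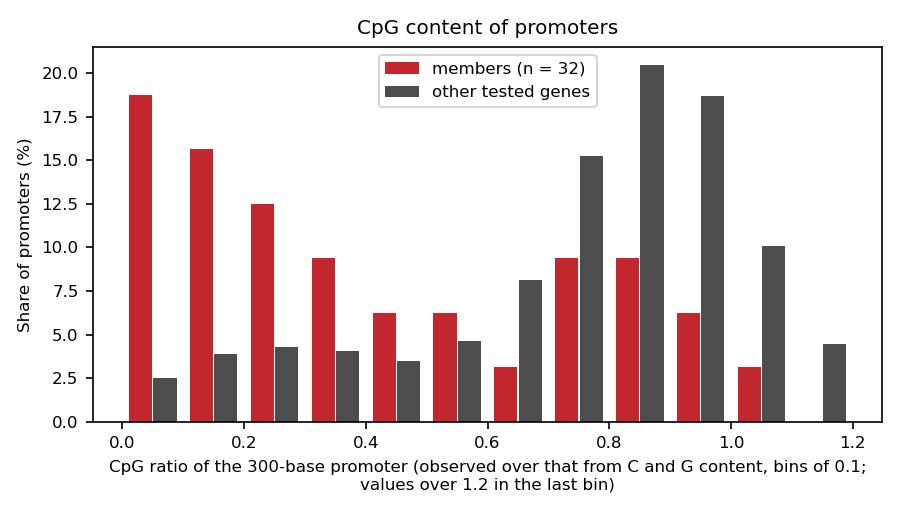
Share of promoters (%) in each bin of the CpG ratio (no unit) for the 32 members with a promoter (red) and for 12658 other tested genes (grey). The members lie mostly at low ratios, with a median of 0.34, and the other tested genes mostly at high ones, with a median of 0.82.

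A motif of the oxidant response was also searched, because many of the selenoproteins that depend on SEPHS2 act against oxidants. The core of the antioxidant response element, TGACNNNGC on either strand, was present in 8 of 32 member promoters (25%), in 14.7% of other tested genes and in 13.6% of all promoters. The 8 windows are printed with the core in capitals, on the strand that carries it, from RefSeq with build GRCh38.p14.
SP140: ttttcctcttTGACTGAGCaccgaggggc
BMX: tagccatttcTGACCCGGCagccaggaaa
RNF128: gaatcccacgTGACAAGGC
PART1: cctaaatagcTGACATTGCatcttcaaga
C4orf19: gcgggcccaaTGACAGCGCtggggcggcc
XDH: gtaaggttgtTGACTTGGCactaggcgac
ALPP: gttgccacctTGACCCTGCccagcctctt
ANKRD30B: acggcctgctTGACATAGCcgcccctggc
They lie at chr2:230225737-230225765 (SP140, plus), chrX:15500806-15500834 (BMX, plus), chrX:106693588-106693606 (RNF128, minus), chr5:60487946-60487974 (PART1, minus), chr4:37453885-37453913 (C4orf19, plus), chr2:31414941-31414969 (XDH, plus), chr2:232378660-232378688 (ALPP, minus) and chr18:14747994-14748022 (ANKRD30B, minus). The match in RNF128 begins at the edge of the window, 250 bases before the start. That of SP140 belongs to a start well inside the gene. A match is a string of letters and not a site shown to be bound. The other motifs searched on both strands, the TATA box TATAAA, the AP-1 motif TGANTCA, the CCAAT box and the E-box CACGTG, stood in 9.38%, 9.38%, 43.75% and 12.5% of member promoters and in 6.62%, 5.00%, 36.6% and 9.57% of those of other tested genes. The E-box CATGTG was found in 6.25% of member promoters, against 7.48% in the others. The cAMP response element TGACGTCA and the E2F motif TTTCCCGC were found in 0 of 32 member promoters, against 2.99% and 2.46% of the others. A variant of the second, TTTGGCGC, was found in that of FHOD3 alone, or 3.13% of the members, against 1.01% of the others.

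Across the 44 genes the ratio of mean CPM had a median of 3.39, with a range of 2.51 to 11.6. These values chose the genes and carry no test. The ratio was 3 or more for 28 genes, 5 or more for 8 and 10 or more for 2. Levels were low, with a median of 3.36 CPM in the libraries labelled knockout and 1.05 CPM in controls. In controls 21 genes averaged under 1 CPM, 21 lay between 1 and 10 CPM, and only TUBB6 and SDC1 exceeded 10 CPM. Summed over the 41 distinct rows, the genes made up 456, 450 and 432 CPM in the libraries labelled knockout, against 155, 149 and 147 CPM in controls. TUBB6 and SDC1 together gave 47.0% of the sum in the libraries labelled knockout. In 40 of the 44 genes every library labelled knockout lay above every control, against 25% of all tested genes, a share that the choice of genes fixes in large part. The lowest library labelled knockout had 2 or more times the CPM of the highest control in 32 genes.

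**Figure D2:**
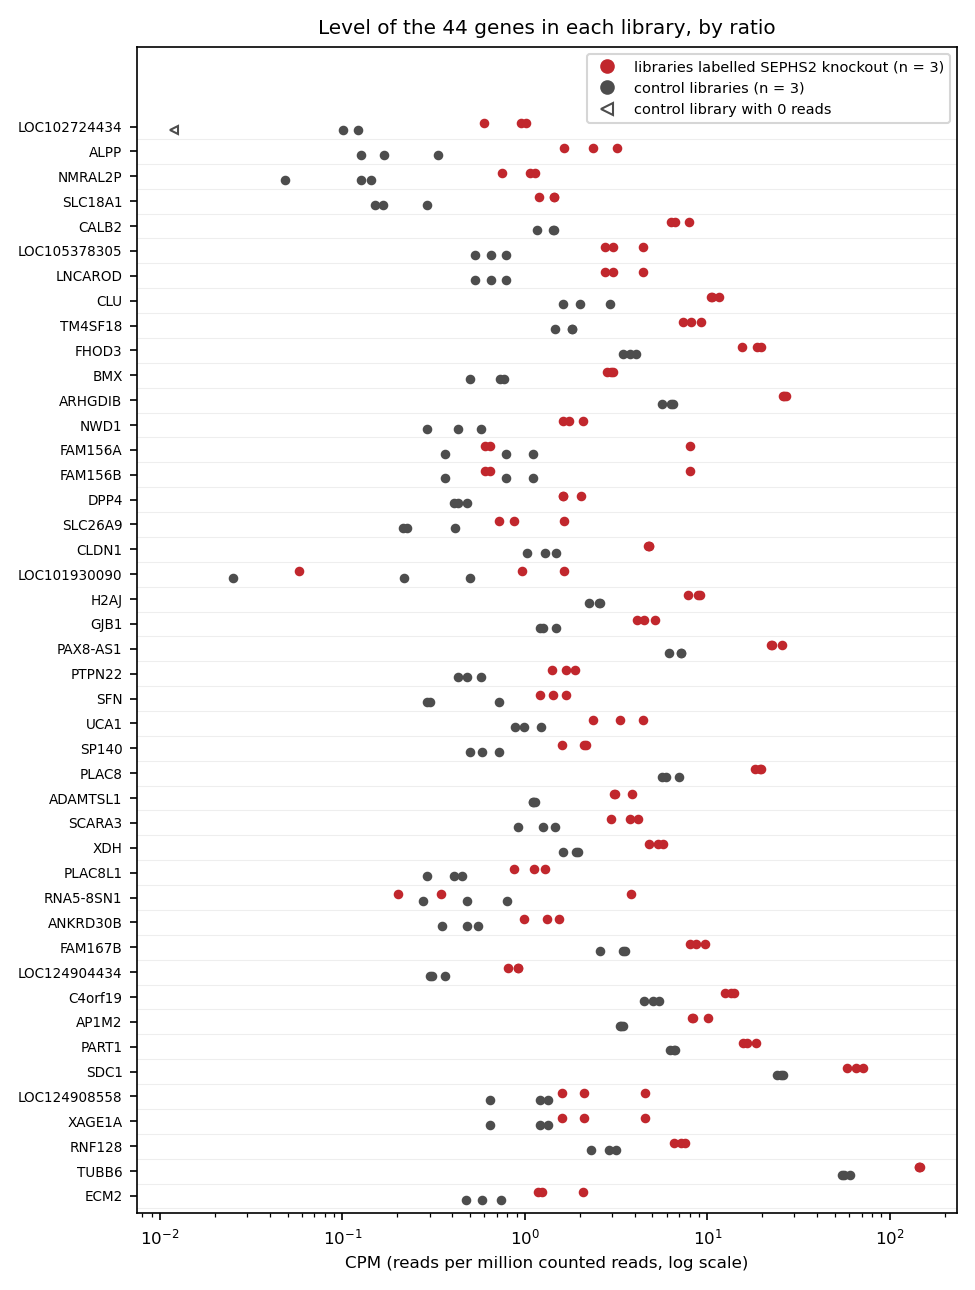
CPM (log scale) of each of the 44 genes in the 3 libraries labelled SEPHS2 knockout (red) and the 3 control libraries (grey), ordered by the ratio of mean CPM, with an open triangle for a control library with 0 reads. The colours lie apart in 40 rows and overlap in FAM156A, FAM156B, LOC101930090 and RNA5-8SN1.

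The cell surface and junction genes ranged from SDC1, the second most abundant member, to transporters near 1 CPM. SDC1, the main syndecan of epithelial cells and plasma cells (chromosome 2, 20200797 to 20225475), had 2473, 2825 and 2344 reads in libraries labelled knockout, against 1082, 1042 and 964 in controls. That is 64.9 ± 6.64 CPM in libraries labelled knockout and 25.1 ± 0.850 CPM in controls (SD, n = 3 each), a ratio of 2.58. The lowest library labelled knockout had 2.25 times the CPM of the highest control. The other 3 syndecans had ratios under 1. Scaled to exon length as RPKM, the CPM per kilobase of exon, SDC1 had 18.1 RPKM in libraries labelled knockout and 6.99 RPKM in controls. SDC2 had 7.49 RPKM in libraries labelled knockout and 18.8 RPKM in controls. SDC3 had 13.5 RPKM in libraries labelled knockout and 18.8 RPKM in controls, and SDC4 had 49.8 RPKM in libraries labelled knockout and 67.5 RPKM in controls. SDC1 was thus the lowest of the 4 syndecans by length-scaled level in controls, and the second after SDC4 in libraries labelled knockout.

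CLDN1, a claudin of epidermal and other tight junctions (chromosome 3, 190305707 to 190322446), had 166, 206 and 192 reads in libraries labelled knockout, against 54, 61 and 41 in controls. Scaled to depth, the libraries labelled knockout were nearly equal, at 4.77 ± 0.0256 CPM, against 1.27 ± 0.225 CPM in controls (SD, n = 3 each), a ratio of 3.76. CLDN1 lies within the span of CLDN16, which had 19 reads in libraries labelled knockout and 2 in controls, so reads could be shared. The claudins with most reads had ratios of 1.12 for CLDN4, 1.06 for CLDN12 and 1.09 for CLDN15, whereas that of CLDN7 was 0.23. GJB1, a connexin of liver and Schwann cell gap junctions (chromosome X, 71215239 to 71225516), had 143, 225 and 182 reads in libraries labelled knockout and 62, 50 and 50 in controls. Its ratio was 3.5, and all 3 libraries labelled knockout lay above the controls. The ratios of other connexins included 0.98 for GJC1, 0.60 for GJA3 and 0.20 for GJA1, the widespread connexin of fibroblasts and heart.

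TM4SF18, a small protein with several membrane spans (chromosome 3, 149318498 to 149333636), had 320, 321 and 329 reads in libraries labelled knockout, against 76, 60 and 72 in controls, a ratio of 4.88. Its neighbour and relative TM4SF1 was much more abundant, with 37.6 ± 3.14 RPKM in libraries labelled knockout and 43.2 ± 1.12 RPKM in controls (SD, n = 3 each). TM4SF18 had 1.85 RPKM in libraries labelled knockout and 0.378 RPKM in controls. The peptidase DPP4, which trims peptide hormones and chemokines at the cell surface, had 70, 70 and 65 reads in libraries labelled knockout and 17, 20 and 17 in controls, a ratio of 3.98. Its relative FAP, next to it on chromosome 2, had 24, 40 and 59 reads in libraries labelled knockout and 82, 109 and 107 in controls. The neighbouring genes DPP4 and FAP thus stood in opposite order between the groups.

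ALPP, the placental alkaline phosphatase held on the membrane by a lipid anchor (chromosome 2, 232378751 to 232382889), had 111, 103 and 66 reads in libraries labelled knockout, against 14, 7 and 5 in controls. The ratio of 11.5 rests on few control reads, and the pooled reads give 11.2 (95% interval 7.47 to 17.4, exact conditional binomial, counting error only). ALPP has a nearly identical copy, ALPG, with 9 reads in libraries labelled knockout and 6 in controls, and reads could be split between them. The widely expressed ALPL had 19 reads in libraries labelled knockout and 66 in controls. SCARA3, a scavenger receptor described as protective against oxidants, had 144, 164 and 119 reads in libraries labelled knockout and 61, 38 and 50 in controls, a ratio of 2.99.

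A pair of transporters completes the membrane genes. SLC18A1, which loads monoamines into vesicles of neuroendocrine cells, had 50, 52 and 58 reads in libraries labelled knockout and 7, 12 and 6 in controls, a ratio of 6.70. SLC26A9, an anion transporter of airway and stomach epithelium, had 25, 38 and 66 reads in libraries labelled knockout and 9, 17 and 9 in controls, a ratio of 3.79. Both were under 2 CPM in every library. Of the 287 other tested solute carriers, 49 were called higher and 77 lower by edgeR (17.1% and 26.8%), against 22% and 23.4% of all tested genes. The amino acid transporter subunits SLC7A5 and SLC3A2 rose by log2 fold changes of 0.80 and 0.63 (edgeR adjusted p = 5.75e-11 and 1.90e-10). SLC24A3 and SLC9A9, which exchange cations, had log2 fold changes of -7.59 and -4.70 (edgeR adjusted p = 3.73e-12 and 1.74e-10). SLC24A3 kept 2 reads in all in the libraries labelled knockout, against 479 in controls, and SLC9A9 kept 12 reads in the libraries labelled knockout, against 339 in controls.

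The cytoskeletal members included the most abundant of the genes. TUBB6, a beta tubulin found mostly in non-neuronal cells (chromosome 18, 12307669 to 12329826), had 5008, 6330 and 5804 reads in libraries labelled knockout, against 2523, 2320 and 2164 in controls. That is 145 ± 0.891 CPM in libraries labelled knockout and 57.0 ± 3.10 CPM in controls (SD, n = 3 each), a ratio of 2.54. Its SD among libraries labelled knockout was 0.615% of the mean, the smallest among the 9 members over 10 CPM there, although the gene lies near the edge of the rule. Other beta tubulins had smaller ratios, 1.53 for TUBB4B, 1.51 for TUBB2A, 1.43 for TUBB, 1.04 for TUBB3, 0.59 for TUBB1 and 0.44 for TUBB4A. By length-scaled level TUBB, at 357 RPKM in libraries labelled knockout and 249 RPKM in controls, was far above TUBB6, at 35.2 RPKM in libraries labelled knockout and 13.8 RPKM in controls. TUBB6 overlaps AFG3L2, and the strand setting of the counting is not given in the sources used here, so reads of the overlap cannot be assigned with certainty.

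ARHGDIB, best known in blood cells (chromosome 12, 14942015 to 14961601), had 910, 1175 and 1047 reads in libraries labelled knockout, against 235, 267 and 252 in controls. Its level was 26.5 ± 0.557 CPM in libraries labelled knockout and 6.14 ± 0.451 CPM in controls (SD, n = 3 each), a ratio of 4.31. The groups did not overlap by a wide margin. ARHGDIA, the ubiquitous form, had a ratio of 1.02 and 40.2 RPKM in libraries labelled knockout, against 39.5 RPKM in controls, while ARHGDIB had 12.6 RPKM in libraries labelled knockout and 2.92 RPKM in controls. The formin FHOD3, which builds actin filaments in heart muscle sarcomeres (chromosome 18, 36297713 to 36780220), had 537, 810 and 791 reads in libraries labelled knockout and 158, 168 and 137 in controls. Its ratio was 4.76, and that of the other formin of its type, FHOD1, was 1.02. AP1M2, the medium subunit of an epithelial clathrin adaptor that sorts proteins to the basolateral membrane, had 350, 358 and 335 reads in libraries labelled knockout and 139, 142 and 133 in controls. Its ratio was 2.64, against 1.04 for the ubiquitous AP1M1.

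**Figure D3:**
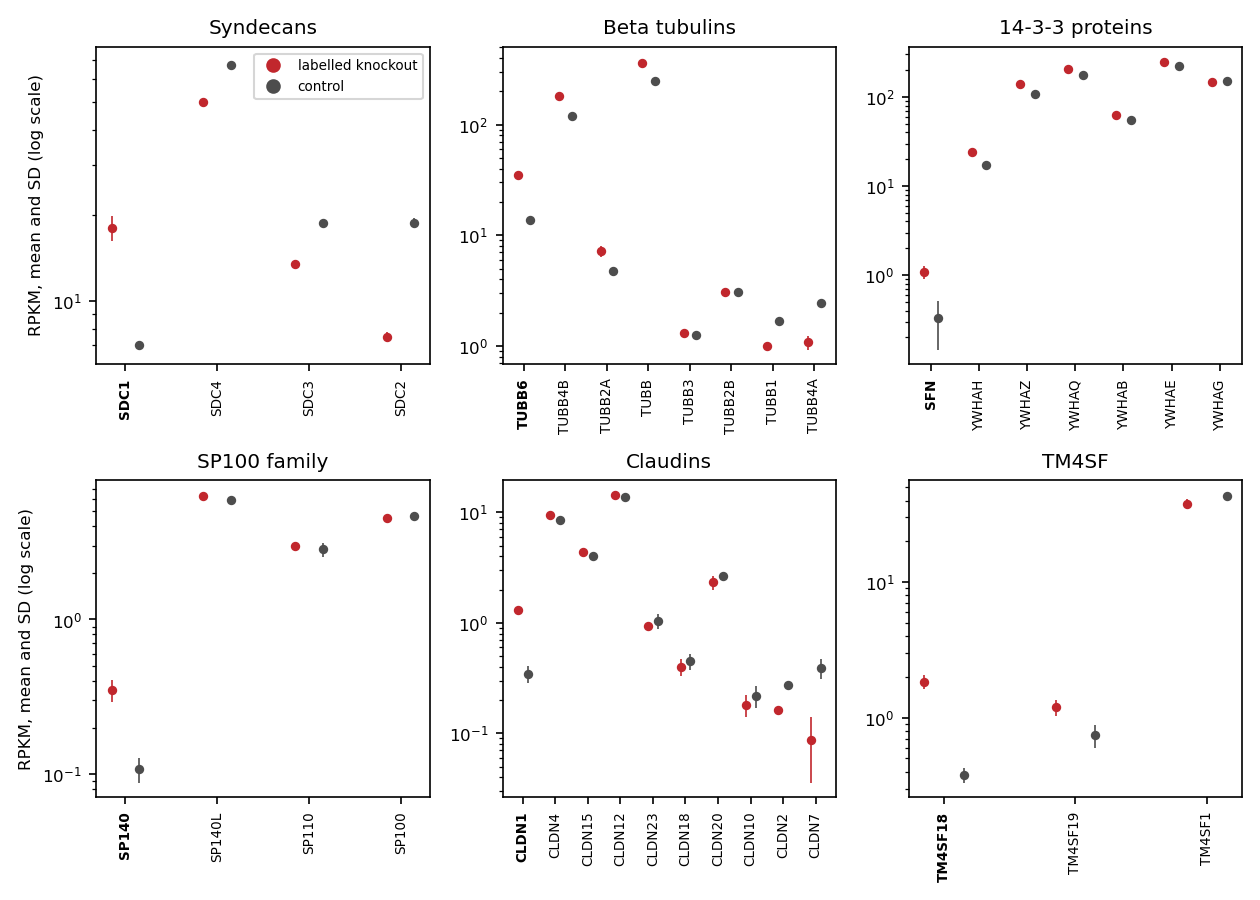
RPKM (log scale, mean and SD of 3 libraries) in libraries labelled SEPHS2 knockout (red) and controls (grey) for 6 members (bold) and the relatives of each with 100 or more reads over all libraries. SDC1 has 18.1 RPKM in libraries labelled knockout and 6.99 RPKM in controls, whereas the other 3 syndecans are lower in libraries labelled knockout, and TM4SF18 lies well below TM4SF1 in both groups.

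Signalling genes among the members were mostly low. CALB2, the calcium-binding protein calretinin of neurons and mesothelium (chromosome 16, 71358723 to 71390433), had 275, 273 and 267 reads in libraries labelled knockout, against 60, 48 and 57 in controls, a ratio of 5.17. BMX, a cytoplasmic tyrosine kinase of the Tec family, had 103, 122 and 123 reads in libraries labelled knockout and 32, 30 and 20 in controls, a ratio of 4.43. Both genes had every library labelled knockout at more than 3 times the highest control. The Tec family relatives TXK and TEC had ratios of 1.52 and 1.16. RNF128, an E3 ubiquitin ligase first studied in unresponsive T cells, had 228, 329 and 288 reads in libraries labelled knockout and 121, 95 and 125 in controls, a ratio of 2.56. PTPN22, a tyrosine phosphatase that restrains lymphocyte receptors, had 65, 61 and 68 reads in libraries labelled knockout and 18, 20 and 23 in controls, a ratio of 3.33. SFN, a p53 target and the epithelial member of the YWHA family of phosphoserine-binding adaptors, had 58, 62 and 49 reads in libraries labelled knockout and 30, 12 and 12 in controls. Its ratio was 3.30, or 4.86 without control replicate 1, 2.82 without control replicate 2 and 2.85 without control replicate 3. The 6 YWHA genes had ratios between 0.98 and 1.39.

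Both chromatin members have well measured relatives. H2AJ, a histone H2A variant made outside S phase (chromosome 12, 14774405 to 14778002), had 272, 397 and 358 reads in libraries labelled knockout, against 106, 93 and 103 in controls, a ratio of 3.51. Of 42 other tested histone genes, 9 were called higher by edgeR (21.4%, against 22% of all tested genes) and none lower (against 23.4%). None was lower by DESeq2, by limma-voom or at an unadjusted edgeR p under 0.05. H2AX and H2AZ1, variants used in DNA repair and at promoters, rose by log2 fold changes of 0.84 and 0.63 (edgeR adjusted p = 3.96e-11 and 2.92e-10), and the linker histones H1-2 and H1-10 by 0.59 and 0.51 (edgeR adjusted p = 6.43e-06 and 2.88e-08). SP140, a chromatin reader of nuclear bodies in lymphocytes, had 75, 91 and 64 reads in libraries labelled knockout and 30, 24 and 20 in controls, a ratio of 3.25. Its relatives SP100, SP110 and SP140L had ratios of 0.97, 1.04 and 1.06.

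The secreted and matrix members were led by clusterin. CLU, an extracellular chaperone that binds misfolded proteins (chromosome 8, 27596917 to 27614700), had 402, 457 and 429 reads in libraries labelled knockout, against 122, 83 and 64 in controls. Its level was 10.9 ± 0.596 CPM in libraries labelled knockout and 2.18 ± 0.673 CPM in controls (SD, n = 3 each), a ratio of 5.01. The 3 controls differed among themselves more than the 3 libraries labelled knockout did. ADAMTSL1, a matrix glycoprotein related to the ADAMTS proteases without their catalytic part, had 134, 134 and 126 reads in libraries labelled knockout and 46, 47 and 44 in controls, a ratio of 3.02. ECM2, a matrix protein, had 41, 54 and 84 reads in libraries labelled knockout and 31, 24 and 19 in controls, the smallest ratio of the genes, 2.51. XDH, which makes urate in the last steps of purine breakdown, was the one classical metabolic enzyme, with 166, 247 and 215 reads in libraries labelled knockout and 82, 79 and 64 in controls, a ratio of 2.88. The related oxidase AOX1 had a ratio of 1.2.

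Other protein-coding members have less defined roles. PLAC8, a small cysteine-rich protein of placenta and leukocytes (chromosome 4, 83090048 to 83114729), had 679, 839 and 736 reads in libraries labelled knockout, against 236, 290 and 237 in controls, a ratio of 3.07. Its relative PLAC8L1 on chromosome 5 had 30, 56 and 45 reads in libraries labelled knockout and 17, 12 and 18 in controls, a ratio of 2.85. C4orf19, now named PGCKA1, had 485, 584 and 504 reads in libraries labelled knockout and 188, 207 and 215 in controls, a ratio of 2.68. None of these groups overlapped. FAM167B had 298, 421 and 323 reads in libraries labelled knockout and 108, 143 and 141 in controls, a ratio of 2.74. NWD1 had 72, 70 and 70 reads in libraries labelled knockout and 24, 12 and 17 in controls, a ratio of 4.20. The ankyrin repeat gene ANKRD30B was low, with 34, 57 and 62 reads in libraries labelled knockout and 23, 20 and 14 in controls, a ratio of 2.76.

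The cancer-testis gene XAGE1A, of a family silent in most adult tissues, shares identical counts with LOC124908558, so both count as 1 measurement. It had 157, 69 and 85 reads in libraries labelled knockout and 27, 50 and 53 in controls, a ratio of 2.58, or 1.74 without the library labelled knockout replicate 1. A further copy, XAGE1B, had 60, 71 and 210 reads in libraries labelled knockout and 111, 35 and 54 in controls, with overlapping groups. Reads of these copies could be split among them, so the values of the single symbols are uncertain. Of 20 other tested genes listed by symbol as cancer-testis genes outside the MAGE and GAGE families, 2 were called higher and 4 lower by edgeR. These are 10% and 20%, against 22% and 23.4% of all tested genes. DDX53 had no reads in the libraries labelled knockout and 47 in controls (edgeR adjusted p = 4.09e-05), and CT45A1 rose by a log2 fold change of 0.27 (edgeR adjusted p = 0.000556). The other call higher was SSX2IP, at 0.20 (edgeR adjusted p = 0.00288), which is listed for its symbol but is not an SSX gene. The number higher was 4 without the library labelled knockout replicate 1 or without control replicate 3, and without the second of these the number lower was 2.

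Among noncoding members, PAX8-AS1 and PART1 were the most abundant. PAX8-AS1, which lies antisense to the thyroid and kidney factor gene PAX8 (chromosome 2, 113235527 to 113267023), had 892, 987 and 894 reads in libraries labelled knockout, against 298, 255 and 285 in controls. Its level was 23.6 ± 1.93 CPM in libraries labelled knockout and 6.82 ± 0.562 CPM in controls (SD, n = 3 each), a ratio of 3.45, and PAX8 itself averaged 1.32 CPM in libraries labelled knockout and 0.69 CPM in controls. Reads of the overlapping genes cannot be told apart without the strand setting. PART1, an androgen-regulated transcript of prostate (chromosome 5, 60487713 to 60547657), had 573, 801 and 632 reads in libraries labelled knockout and 262, 270 and 264 in controls, a ratio of 2.61. It overlaps PDE4D, which had 61.3 CPM in libraries labelled knockout and 45.8 CPM in controls, so reads could be shared. UCA1, a long noncoding RNA named for urothelial carcinoma, had 154, 102 and 133 reads in libraries labelled knockout and 51, 41 and 35 in controls, a ratio of 3.27. LNCAROD, a long noncoding RNA of chromosome 10, had 153, 119 and 122 reads in libraries labelled knockout and 33, 22 and 26 in controls, a ratio of 5.16. The row of its neighbour LOC105378305 is identical to it in all 6 libraries, so both count as 1 measurement.

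The largest ratio was that of a barely detected RNA. LOC102724434 on chromosome 7 had 33, 44 and 24 reads in libraries labelled knockout, against 0, 5 and 4 in controls, a ratio of 11.6 that ran from 7.71 without control replicate 1 to 17.0 without control replicate 2. Its pooled reads give 11.7 (95% interval 5.90 to 26.2, exact conditional binomial, counting error only). NMRAL2P, a transcribed pseudogene on chromosome 3, had 37, 49 and 30 reads in libraries labelled knockout and 6, 2 and 5 in controls, a ratio of 9.26. The highest level of either in any library was 1.13 CPM. LOC124904434 had 28, 40 and 37 reads in libraries labelled knockout and 13, 15 and 12 in controls, a ratio of 2.71. Of 502 other tested RNAs with antisense names, 48 were called higher and 51 lower by edgeR (9.56% and 10.2%), fewer in both directions than the 22% and 23.4% of all tested genes. Of 670 other tested genes with LOC symbols, 51 were called higher and 258 lower (7.61% and 38.5%). Without control replicate 1 the numbers were 32 and 42, and the number higher was 33 without control replicate 2 or without the library labelled knockout replicate 2.

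In 4 of the 44 rows the groups overlapped and 1 or a few libraries made the ratio. FAM156A and FAM156B, adjacent X-linked copies with identical counts, had 21, 348 and 26 reads in libraries labelled knockout and 33, 15 and 44 in controls. Their ratio of 4.10 became 0.83 without the library labelled knockout replicate 2. RNA5-8SN1, a ribosomal RNA gene present in many copies, had 7, 15 and 154 reads in libraries labelled knockout and 20, 33 and 11 in controls. The ratio of 2.81 became 0.53 without the library labelled knockout replicate 3, and a ribosomal RNA read-out depends on how such RNA was removed, which is not given in the sources used here. LOC101930090, a pseudogene, had 2, 42 and 66 reads in libraries labelled knockout and 21, 9 and 1 in controls. Its ratio of 3.57 was 2.06 without the library labelled knockout replicate 3 and 7.30 without control replicate 1, so these rows meet the rule although the groups overlap.

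**Figure D4:**
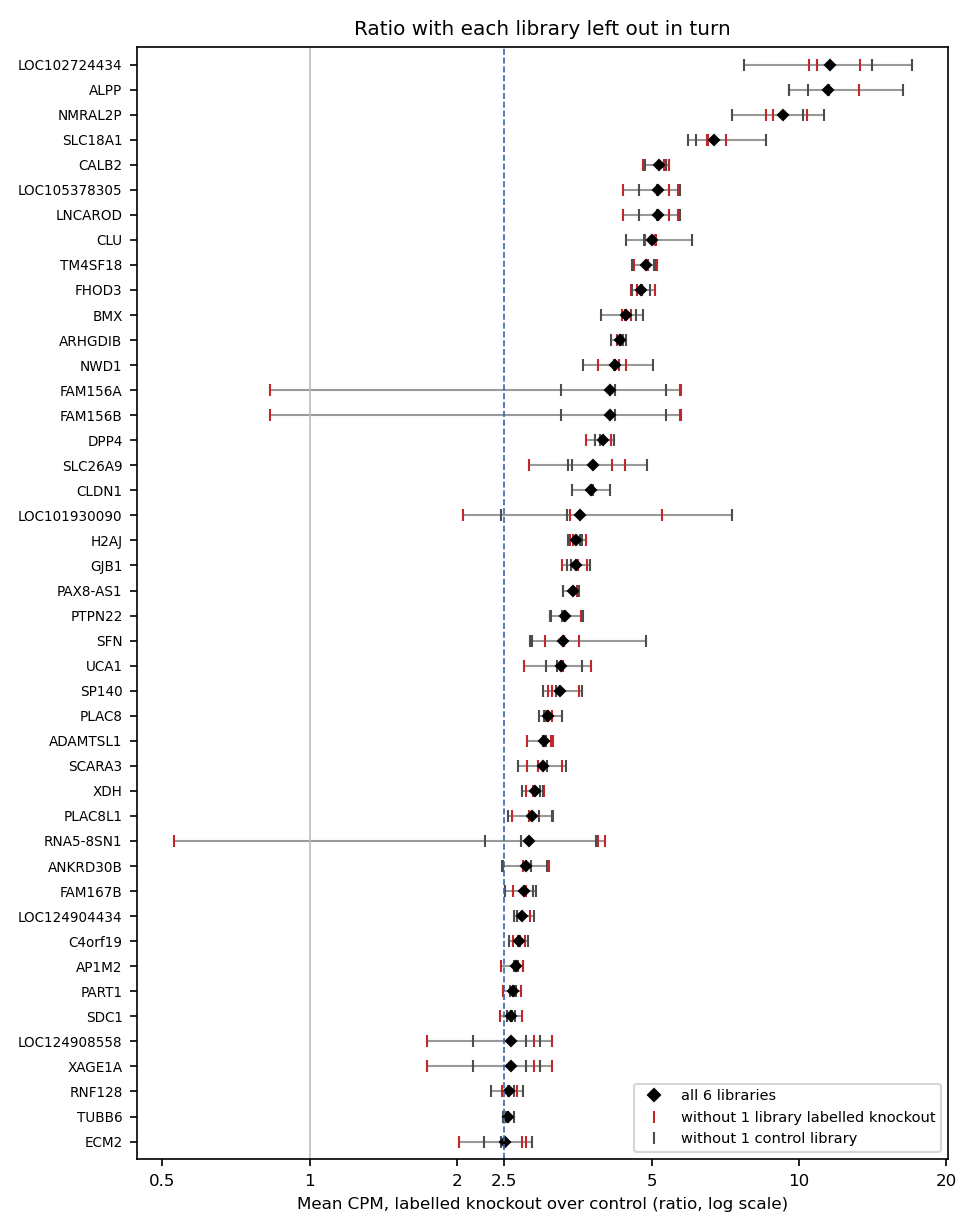
Ratio of mean CPM, libraries labelled SEPHS2 knockout over control (log scale), for each of the 44 genes with all 6 libraries (diamonds), without each library labelled knockout (red ticks) and without each control (grey ticks), with the rule at 2.5 as a dashed line. FAM156A and FAM156B reach 0.83 and RNA5-8SN1 reaches 0.53, below a ratio of 1, while the other 41 rows stay above 1 in every case.

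At the edge of the rule, the genes just inside were ECM2 at 2.51, TUBB6 at 2.54, RNF128 at 2.56 and XAGE1A with its identical row at 2.58. Just outside were LOC107985563 at 2.49, NRG1-IT1 at 2.48, TRIML2 at 2.47 and XG, with an identical row, at 2.47. The threshold of 2.5 thus runs through a continuous set of values. Among the 41 distinct rows, the highest library labelled knockout was replicate 1 in 21 rows, replicate 2 in 13 and replicate 3 in 7.

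The genes were spread over 15 chromosomes. Chromosomes 2 and X held 6 each and chromosome 1 held 5. Those on X include both FAM156A and FAM156B, which have identical counts. None lay on chromosomes 6, 11, 13, 14, 15, 17, 20 or 22, which depends in part on the genes left out by name. Of these, LINC03002 lies on chromosome 6, LINC01537 on 11, LINC02915 on 15, NGFR and KRT14 on 17 and LINC02910 on 20. Chromosome 18 held 3 (TUBB6, ANKRD30B and FHOD3), or 6.98% of the placed members, against 1.43% of all rows with the read minimum. NDC80, TYMS, CCBE1 and LINC02582, left out by name, also lie on chromosome 18. A few lay close together. CLU and SCARA3 are 19 kb apart on chromosome 8 with no tested gene between them, and H2AJ and ARHGDIB are 164 kb apart on chromosome 12 with WBP11, C12orf60, MGP and ERP27 between them.

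The tested genes next to the members were not chosen by their reads, and so allow a count of calls. Of 157 such neighbours, the nearest 2 on each side without rows that meet the ratio and read rule, edgeR called 50 higher (31.8%) and 29 lower (18.5%). Their median log2 fold change was 0.09. Of all tested genes outside the rule, 21.7% were higher and 23.4% lower, with a median of 0.00. On chromosome 18, 8 of 12 neighbours were higher and 1 lower, and without that chromosome, which was left out after the data were seen, 42 of 145 (29%) were higher and 28 (19.3%) lower. Some neighbours overlap a member and could share its reads, such as PDE4D with PART1, SP110 with SP140 and CCDC25 with SCARA3. Without the overlapping ones, also left out after the data were seen, 45 of 149 (30.2%) were higher and 29 (19.5%) lower. Nearest here means nearest among tested genes, without a limit on distance. Some neighbours therefore lie far from the member, such as CNTNAP3B, 18934 kb from LOC101930090. Neighbours are described by these counts and were given no test as a set.

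All 4 tested neighbours of TUBB6 were higher. They passed edgeR with log2 fold changes of 1.2 for IMPA2, an inositol phosphatase, 1.19 for PRELID3A, 0.94 for MPPE1 and 0.94 for the mitochondrial protease gene AFG3L2 (adjusted p = 2.58e-12, 3.31e-09, 7.88e-11 and 6.81e-13). AFG3L2 had 113 ± 4.88 CPM in libraries labelled knockout and 59.3 ± 1.28 CPM in controls. Whether the level of TUBB6 moves with its region was not tested. On the same chromosome, ZNF519, 616 kb from ANKRD30B, rose by 0.98 (edgeR adjusted p = 2.45e-09). ROCK1, a kinase of the actin cytoskeleton and the next tested gene on the other side, lies 6006 kb away and rose by 0.44 (edgeR adjusted p = 7.53e-08).

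Around other members the neighbours went both ways. Of the neighbours of FHOD3, 1 fell, 1 rose and 2 did not pass. MOCOS, which activates molybdenum enzymes such as the product of XDH, fell to 85.9 ± 2.19 CPM in libraries labelled knockout, against 171 ± 4.15 CPM in controls (log2 fold change -0.98, edgeR adjusted p = 8.52e-14). TPGS2, which overlaps FHOD3, so that reads could be shared, rose by 0.22, with 77.1 ± 1.03 CPM in libraries labelled knockout and 66.7 ± 3.08 CPM in controls (edgeR adjusted p = 0.000507). Beside ARHGDIB, the calcification inhibitor gene MGP, the Ras-like gene RERG and the phosphatase gene PTPRO had log2 fold changes of -1.43, -1.54 and -1.15 (edgeR adjusted p = 1.56e-09, 0.00454 and 9.93e-09). ERP27, 3.48 kb from ARHGDIB, had 16, 15 and 14 reads in libraries labelled knockout and 1, 7 and 7 in controls (log2 fold change 1.63, edgeR adjusted p = 0.0225, and 0.132 without control replicate 1 and 0.0697 without the library labelled knockout replicate 1). Of the 4 neighbours of ARHGDIB, 3 thus fell and the nearest, ERP27, was higher with few reads. Near BMX, PIR, an iron-binding nuclear protein, rose by 1.03, to 76.9 ± 3.11 CPM in libraries labelled knockout, against 38 ± 0.954 CPM in controls (edgeR adjusted p = 5.19e-13). Near CLU and SCARA3, the cohesin acetyltransferase gene ESCO2 and the epoxide hydrolase gene EPHX2 had log2 fold changes of 0.78 and -2.09 (edgeR adjusted p = 2.54e-08 and 0.00274). TM4SF1 beside TM4SF18 and FAP beside DPP4 had log2 fold changes of -0.19 and -1.22 (edgeR adjusted p = 0.00459 and 0.000255). Near LOC102724434, CAV1, the coat protein gene of caveolae, and the actin-linked TES rose by 0.87 and 0.42, and RELL1, which overlaps C4orf19, by 0.82 (edgeR adjusted p = 4.62e-10, 1.31e-06 and 8.62e-09).

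**Figure D5:**
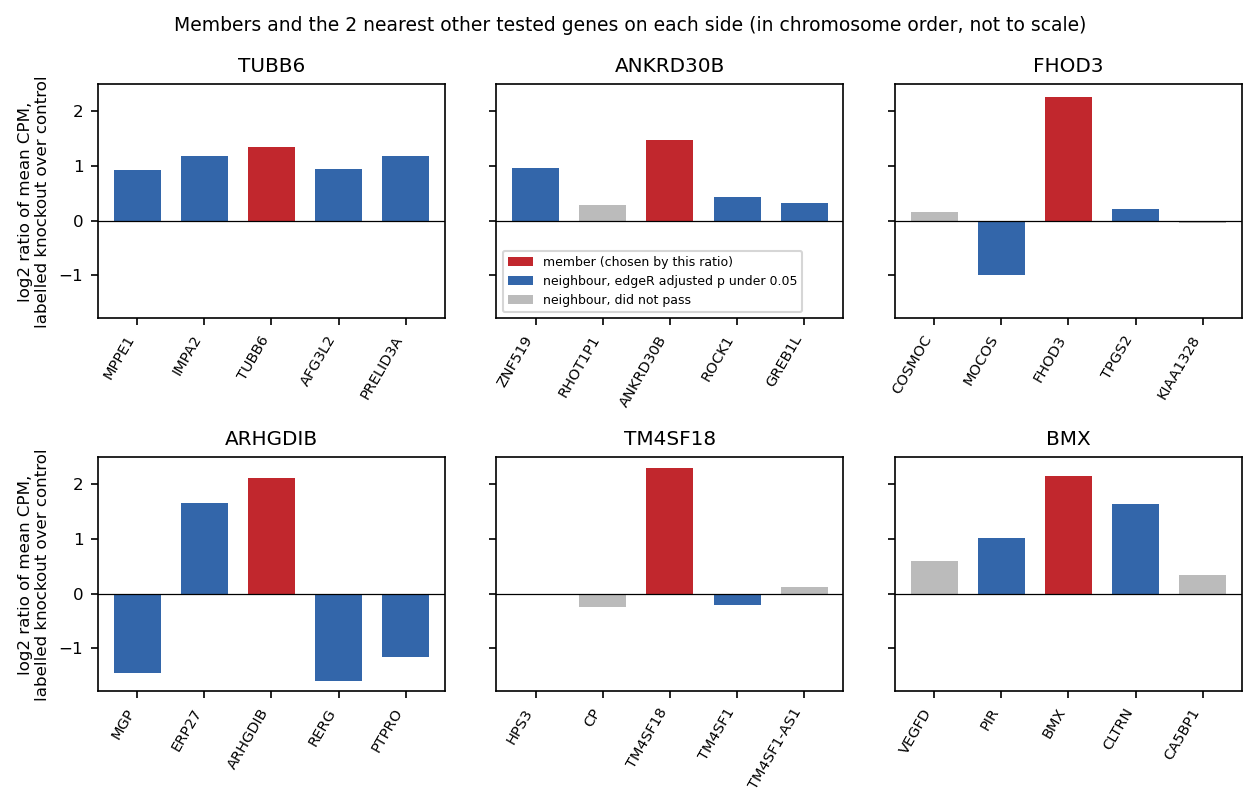
Log2 ratio of mean CPM, libraries labelled SEPHS2 knockout over control, for 6 members (red) and the 2 nearest other tested genes on each side in chromosome order (blue where edgeR adjusted p was under 0.05, grey where not). The 4 neighbours of TUBB6 are all higher, while those of ARHGDIB (3 lower, 1 higher) and FHOD3 (1 lower, 1 higher, 2 that did not pass) go both ways.

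Several members are textbook genes of other cell types, so marker genes of those types were read beside them. Of 5 tested epithelial markers, 4 were called higher by edgeR and none lower, against 22% and 23.4% of all tested genes, and the summed level of the list was 289 to 300 CPM in libraries labelled knockout and 244 to 249 CPM in controls. KRT8 and KRT18, the keratins of simple epithelia, rose by log2 fold changes of 0.48 and 0.15 (edgeR adjusted p = 7.76e-08 and 0.00599). CLDN4 rose by 0.18 (edgeR adjusted p = 0.0185, and 0.129 without the library labelled knockout replicate 2, 0.0667 without control replicate 1 and 0.0971 without control replicate 3). The fourth, KRT14, met the rule for the ratio itself and was left out of the members by name. Its call was largely fixed by that ratio, so only KRT8, KRT18 and CLDN4 can be set beside the shares of all tested genes. The defining epithelial genes EPCAM and CDH1 stayed under 1 CPM on average in both groups. Of the 3 tested genes of the leukocyte list, LYZ alone was called, and rose by 1.03 (edgeR adjusted p = 8.20e-07), while CD14 and NKG7 did not pass. The summed level was 7.58 to 8.79 CPM in libraries labelled knockout and 4.80 to 5.68 CPM in controls. LYZ made up most of it, with 6.66 CPM in libraries labelled knockout and 3.29 CPM in controls. PTPRC, the pan-leukocyte marker, was near 0, with 1 read in libraries labelled knockout and 16 in controls. The fibroblast list summed to 39.3 to 45.0 CPM in libraries labelled knockout and 65.6 to 67 CPM in controls, with 1 gene higher and 4 lower of 7 tested. The neuronal list summed to 44 to 47.6 CPM in libraries labelled knockout and 67.7 to 74.7 CPM in controls, with none higher and 4 lower of 7 tested. For endothelium the sums were 8.18 to 9.36 CPM in libraries labelled knockout and 9.82 to 10.4 CPM in controls, with none higher and 1 lower of 4 tested. The melanocyte list summed to 799 to 826 CPM in libraries labelled knockout and 824 to 860 CPM in controls, with 1 gene higher and 4 lower of 9 tested. The lists with none in a direction also had none there by DESeq2, by limma-voom and at an unadjusted edgeR p under 0.05. The part of such cells in the levels of the members was not tested.

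Over 26 gene families listed by symbol, some of which hold a member, 418 of 2960 other tested genes were called higher by edgeR and 782 lower. These are 14.1% and 26.4%, against 21.7% and 23.4% of all tested genes outside the rule. Without control replicate 1 the number lower was 504, and the LOC-named genes hold most of that difference. The list of SOX, FOX, GATA, TBX, PAX and NKX transcription factor symbols also takes in antisense RNAs such as the member PAX8-AS1. Among its 75 other tested genes, 5 were higher and 27 lower (6.67% and 36%, against 22% and 23.4% of all tested genes). The number higher was 3 without control replicate 1 or without control replicate 3. SOX11 and SOX4 had log2 fold changes of -1.40 and -0.91 (edgeR adjusted p = 5.81e-15 and 4.52e-11). Among 29 tested tetraspanins and claudins, 4 were higher (13.8%) and 7 lower (24.1%, near the 23.4% of all tested genes). TSPAN11, TSPAN9 and TSPAN15 had log2 fold changes of -1.90, -0.50 and -1.72 (edgeR adjusted p = 5.53e-15, 2.40e-06 and 0.0002). TSPAN12 rose by 0.50 (edgeR adjusted p = 3.34e-06). The number higher in that family was 2 without the library labelled knockout replicate 2 or without control replicate 3.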

How the data were processed

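Libraries were grouped by the guide in their titles, 3 labelled SEPHS2 knockout and 3 control. The authors deposited raw read counts per gene symbol, not normalized. The submitters' processing notes name featureCounts 2.0.6 (Subread), SAMtools 1.21, HISAT2 2.2.1 and FastQC 0.12.1, and the genome build GRCh38. Which annotation, strand setting and rule for multiply mapped reads applied is not given in the sources used here, so antisense, overlapping and duplicated genes are uncertain.

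CPM used column totals, and RPKM the merged exon length from GENCODE v29, found for 39 of the 44 genes. The test was edgeR 4.0.16 under R 4.3.3 (TMM factors, default expression filter, two-sided quasi-likelihood test, 3 against 3, no block), with Benjamini-Hochberg adjustment over 16910 genes. Log2 fold changes set libraries labelled knockout over controls, and a p printed without 1 library is from that fit refitted. The procedure was tested on simulated counts. Members got no test, since the same contrast chose them.

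Positions and promoters came from RefSeq (GRCh38.p14), which matched 43 of the 44 genes by symbol. Counting intervals are 95% exact conditional binomial. They cover counting error only, because PCR copies of a molecule cannot be recognised. Totals of 34606145 to 43405579 reads set the depth, at which 3 reads are under 0.1 CPM.

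The genes and all lists were chosen with earlier results of these data known. Reads per library were to be given for the 15 members with the largest ratio, the 15 with the highest mean, and those near another member or in a listed family, and are given for all. Non-members are named as neighbours, up to 4 per member and up to 4 per family by smallest adjusted p. Relatives were listed after the members were known and carry values only. Alternatives were RLE and upper-quartile factors, other filters, DESeq2 1.42.0, limma-voom (limma 3.58.1), the replicate number as a block, each library left out, an adjusted p under 0.01, and other settings of the rule.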

Additional observations from a re-analysis of the deposited data

How the results depend on the processing

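Which genes meet the rule depended on its thresholds. With 50 or more reads it gave 69 genes, with a ratio of 2 or more 118 and with 3 or more 28. Scaling by TMM or RLE, 200 or more reads, median CPM, 1 of each set of identical rows, or leaving out a library gave 32 to 54 genes. Without 1 library the ratio of FAM156A and its identical row FAM156B ran from 0.83 to 5.75 and that of RNA5-8SN1 from 0.53 to 4.02, and no other member reversed. Neighbours gave 25 higher and 16 lower of 79 when only the nearest on each side was taken, which is fewer genes. Family genes higher numbered 278 at an adjusted p under 0.01. Family genes lower ranged from 504, without control replicate 1, to 749 when 1 library was left out. DESeq2 called 3342 genes higher and 3792 lower over all tested genes, and leaving out 1 library gave 3069 to 3548 higher and 3270 to 3905 lower. With the replicate number as a block, 3777 genes were higher and 3997 lower, neighbours numbered 51 and 29, and family genes 412 and 781. Deviations from the group mean had correlations of 0.01, -0.09 and -0.25 between same-numbered libraries, and of -0.25 to 0.30 between differently numbered ones. With 3 libraries per group, these values cannot show whether the numbers pair the samples. All other settings kept these counts within 1.5 times. Members under 1 CPM rest on few reads, and their ratios carry wide counting error.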
